A study of Homo sapiens with 6 samples.

Results

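The 37 genes described here are those that the count table places on the mitochondrial chromosome, out of 33900 genes in all. They were taken by their chromosome alone and sorted by name into 2 rRNA genes, 22 tRNA genes and 13 protein-coding genes. By strand, 28 of them are read from the heavy-strand transcript and 9 from the light-strand transcript, namely MT-ND6 and 8 tRNAs. LX-2, a single established line of human hepatic stellate cells, labelled wild type, was treated for 48 h with recombinant human Sema3C (rhSema3C) at 300 ng/ml in 3 samples or with PBS in 3 samples. All samples shared the same serum-containing medium, and the labels call the samples of a group biological replicates without saying whether they came from separate cultures. The study asked how Sema3C, a secreted semaphorin, alters gene expression in stellate cells.

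The human mitochondrial genome is a small circle whose 2 strands are each transcribed into long precursors by a single RNA polymerase, POLRMT, together with TFAM and TFB2M. Most tRNA genes lie between the mRNA and rRNA genes, and the precursors are cut at both ends of each tRNA by RNase P and by the RNase Z enzyme ELAC2, so that excision of a tRNA also frees its neighbours. The 2 rRNAs form the core of the mitochondrial ribosome, and all 13 mRNAs encode subunits of the respiratory chain or of ATP synthase. The genome itself encodes no protein of transcription, processing or ribosome assembly, and these all come from nuclear genes.

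The tRNA genes on which the results turn are shown by their genomic sequence, 5′ to 3′ on the strand of the gene, with the anticodon in capitals. They were taken from GENCODE release 29 transcripts on GRCh38 and lack the CCA end that is added after cutting. MT-TF, for phenylalanine, and MT-TP, for proline, carried more counts after rhSema3C. MT-TF lies at positions 577 to 647, the first gene of the heavy-strand transcript and directly before MT-RNR1, and MT-TP lies on the other strand at 15956 to 16023.
MT-TF: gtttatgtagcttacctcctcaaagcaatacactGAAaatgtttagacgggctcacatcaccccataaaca
MT-TP: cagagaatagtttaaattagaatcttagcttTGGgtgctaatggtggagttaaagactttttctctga

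Of the tRNA genes that fell, MT-TA (alanine, 5587 to 5655), MT-TN (asparagine, 5657 to 5729), MT-TC (cysteine, 5761 to 5826) and MT-TY (tyrosine, 5826 to 5891) form a cluster of light-strand genes between MT-ND2 and MT-CO1. MT-TD (aspartate, 7518 to 7585) is a heavy-strand gene between MT-CO1 and MT-CO2.
MT-TA: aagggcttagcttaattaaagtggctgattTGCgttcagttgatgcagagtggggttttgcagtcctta
MT-TN: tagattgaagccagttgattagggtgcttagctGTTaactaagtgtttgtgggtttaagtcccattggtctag
MT-TC: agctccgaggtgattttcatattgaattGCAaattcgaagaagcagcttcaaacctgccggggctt
MT-TY: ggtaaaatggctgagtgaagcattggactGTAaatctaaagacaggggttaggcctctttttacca
MT-TD: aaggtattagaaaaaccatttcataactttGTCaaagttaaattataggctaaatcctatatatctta

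Each sample held between 68267808 and 89245585 counts in all. All 37 genes passed the filter on low values, a mean of at least 0.5 FPKM (fragments per kilobase of gene, corrected for sequencing depth), which left 14178 genes for edgeR. Mitochondrial genes made up 7 of the 10 genes with the highest mean FPKM and 13 of the first 20. The labelled cell type was checked on 12 marker genes of stellate cells and fibroblasts. Of the 11 present in the table, 8 had at least 1 FPKM in every sample, among them VIM, COL1A1, ACTA2 and PDGFRB, while COL1A2, DES and LRAT stayed under 1 FPKM, with COL1A2 between 0.0576 and 0.144. Of the markers of other liver cells, the hepatocyte gene SERPINA1, the biliary gene KRT7 and the lysosomal gene CD68 reached 1 FPKM in every sample, and no endothelial marker did. These are bulk samples, in which fewer cells of a type and less RNA per cell cannot be told apart.

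Treatment with rhSema3C shifted the mitochondrial counts from mRNA towards rRNA. Both rRNAs rose, all 13 mRNAs fell, and the tRNAs divided, with 2 higher, 9 lower and 11 that did not pass the test. Over all 37 members, edgeR called 4 higher and 22 lower at an adjusted p below 0.05. The groups were separated without overlap in 4 members upwards and in 25 downwards, against 34.6% and 33.3% of all genes tested. Of all 14178 genes tested, 31.7% were called higher and 30.6% lower, and their median log2 fold change was 0.02, against a median of -0.50 over the 37 members.

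**Figure D1:**
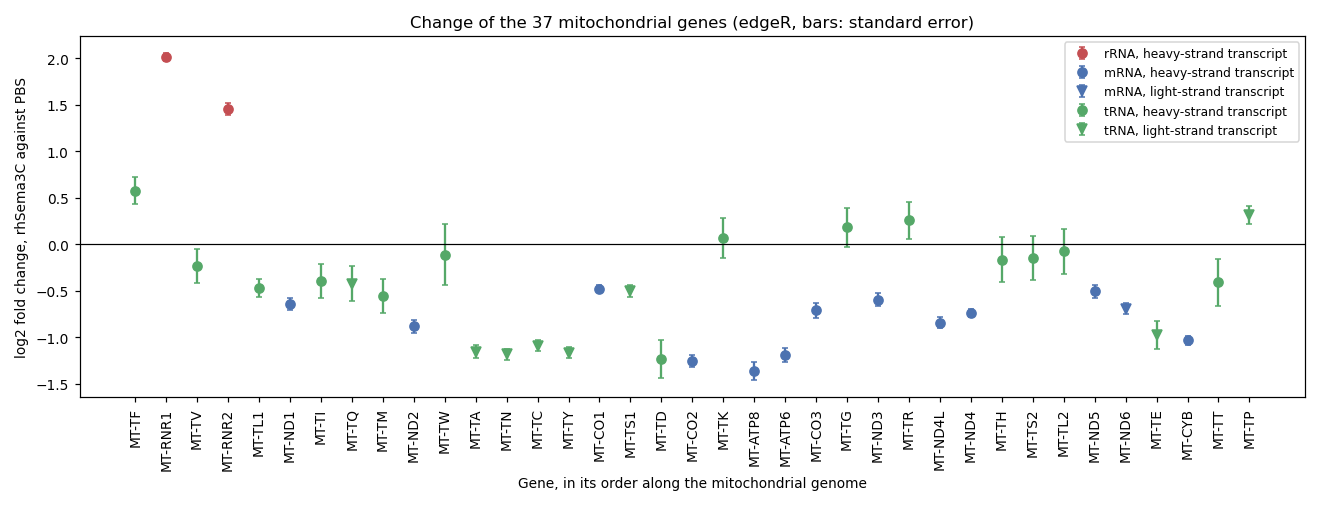
Log2 fold change with rhSema3C against PBS (vertical axis, edgeR) for the 37 mitochondrial genes in their order along the genome (horizontal axis), with bars for the standard error, circles for the heavy-strand and triangles for the light-strand transcript. The 2 rRNAs stand at 2.02 and 1.46, all 13 mRNAs lie between -1.36 and -0.48, and the tRNAs spread from -1.23 to 0.58.

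MT-RNR1, the 12S rRNA of the small ribosomal subunit (ENSG00000211459, positions 648 to 1601, heavy-strand transcript), had TMM-scaled CPM (counts divided by library size, so that samples of unequal depth compare) of 460, 441 and 472 in the PBS samples and 1799, 1924 and 1829 in the rhSema3C samples. The lowest treated sample was thus well above the highest control sample. Its level was 4.05-fold higher (log2 fold change 2.02, SE 0.04, edgeR adjusted p = 1.9e-10), which ranked it 47 of the 14178 genes by log2 fold change.

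MT-RNR2, the 16S rRNA of the large subunit (ENSG00000210082, positions 1671 to 3229, heavy-strand transcript), stood at 2390, 1981 and 2106 CPM with PBS and at 5860, 6266 and 5674 CPM with rhSema3C. Again the groups did not overlap, and the rise was 2.75-fold (log2 fold change 1.46, SE 0.06, edgeR adjusted p = 1.6e-08). The 2 genes are cut from the same stretch of precursor and lie on either side of MT-TV, so their counts were compared within each sample. The ratio of MT-RNR1 to MT-RNR2 counts was 0.192, 0.222 and 0.224 with PBS and 0.307, 0.307 and 0.322 with rhSema3C, a log2 difference of 0.55. An exact permutation test (two-sided) gave p = 0.1 for this ratio, the smallest value that 3 against 3 samples allow. The value was 0.137 after adjustment over 26 count ratios, which include the share of each mRNA in the mRNA counts. Shares of all counts or of the mitochondrial counts were not part of this adjustment.

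The counts also gave the balance between rRNA and mRNA within each sample. Summed rRNA counts were 0.0538, 0.0518 and 0.0546 of the summed mRNA counts in the PBS samples and 0.255, 0.278 and 0.267 in the rhSema3C samples, a log2 difference of 2.32 (exact permutation p = 0.1, adjusted 0.137). MT-ND1 follows MT-RNR2 on the same transcript, behind only MT-TL1, and the ratio of MT-RNR2 to MT-ND1 counts went from 0.618 ± 0.00785 to 2.65 ± 0.161 (SD, n = 3 each). Because both counts of such a ratio come from the same sample, the scaling between libraries does not enter it.

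Of all counts in a sample, mitochondrial genes took 5.01% ± 0.358 with PBS and 3.86% ± 0.112 with rhSema3C (SD, n = 3 each). The mRNA share went from 4.72% ± 0.336 to 3.03% ± 0.0919, the rRNA share from 0.252% ± 0.0214 to 0.808% ± 0.037 and the tRNA share from 0.0371% ± 0.00209 to 0.0244% ± 0.000875. In none of these shares did the groups overlap. Within the mitochondrial counts, rRNA made up 5.03% ± 0.127 with PBS and 20.9% ± 0.721 with rhSema3C, and mRNA 94.2% ± 0.153 and 78.5% ± 0.719. MT-CO1, by contrast, held 26.9%, 28.9% and 27.8% of the mitochondrial counts in the PBS samples and 28.3%, 27.2% and 28.3% in the rhSema3C samples, which overlap.

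**Figure D2:**
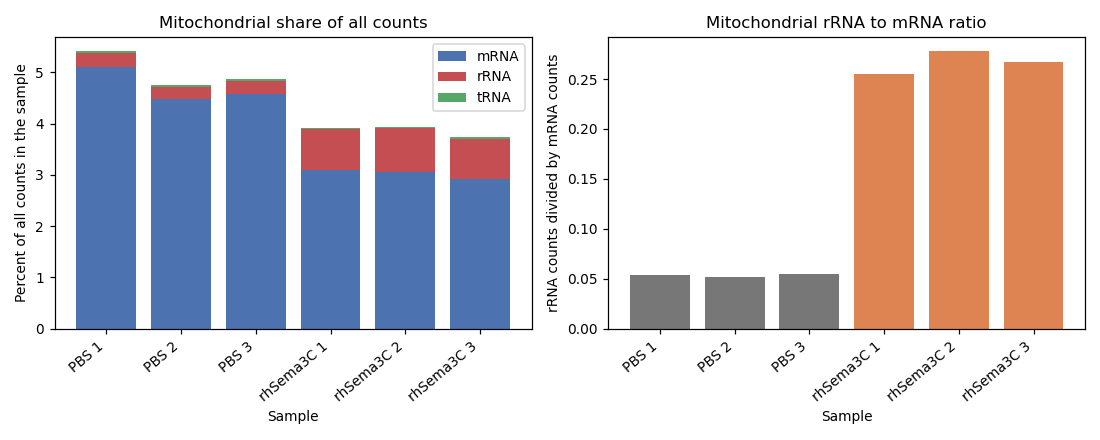
Left, the percent of all counts in each of the 6 samples that fell on mitochondrial mRNA, rRNA and tRNA genes (stacked bars); right, summed rRNA counts divided by summed mRNA counts in the same samples. The total is 5.42, 4.75 and 4.86% with PBS and 3.92, 3.93 and 3.73% with rhSema3C, with a larger rRNA part, and the ratio lies between 0.0518 and 0.0546 with PBS and between 0.255 and 0.278 with rhSema3C.

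The labels name a kit for mRNA libraries, and mitochondrial rRNAs carry only short adenine tails, so the level of other RNAs without long tails was measured beside them. Of 31 such nuclear-encoded RNAs, among them signal recognition particle, spliceosomal and small Cajal body RNAs, 21 were in the table, 19 of these had at most 100 counts in every sample, and 5 passed the filter. Their summed level was 5.65, 5.47 and 8.05 CPM with PBS and 7.03, 5.71 and 7.53 CPM with rhSema3C, so that the groups overlapped (exact permutation p = 0.8). None of the 5 was called by edgeR, DESeq2 or limma at an adjusted p of 0.05, and at an unadjusted p of 0.05 the number was 0 by edgeR, 0 by DESeq2 and 1 by limma. Their log2 fold changes ran from -0.52 to 0.93 with a median of 0.32, and how far the carry-over of RNAs without long tails bears on the rRNA values was not tested.

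The 13 mRNAs were lower in every rhSema3C sample than in any PBS sample. Leaving out any single sample left all 13 calls and both rRNA calls in place. The fall differed between genes, from 71.8% of the PBS level that was left of MT-CO1 to 38.9% for MT-ATP8, whose fold change ranked 14069 of 14178. The mRNAs of complex I fell by a median of 0.69 on the log2 scale, those of complex IV by 0.71, the single mRNA of complex III by 1.03 and the pair of ATP synthase mRNAs by 1.28.

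**Figure D3:**
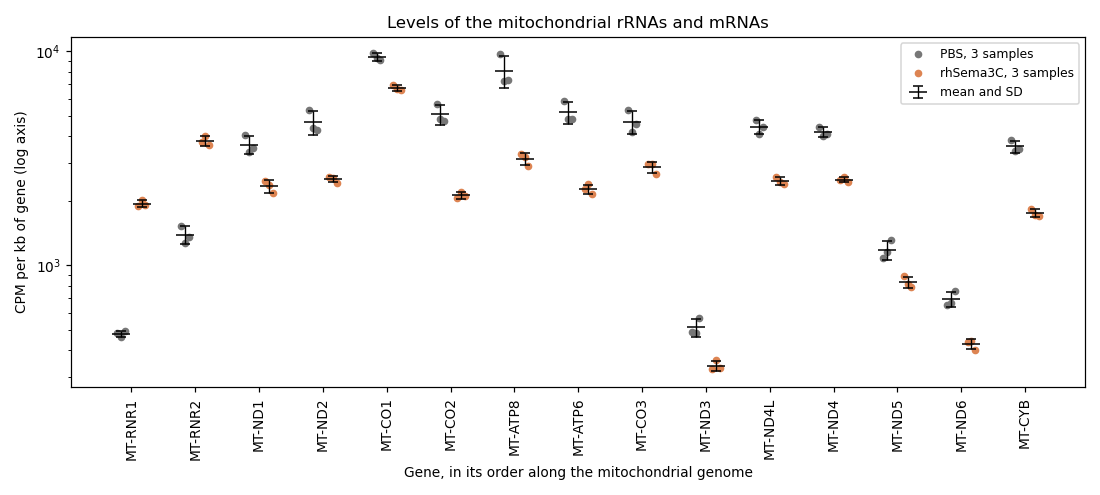
Level of the 2 rRNAs and 13 mRNAs in CPM per kilobase of gene (log axis) in each PBS sample (grey) and rhSema3C sample (orange), with the mean and SD of 3 samples. MT-RNR1 moves from the lowest mean of the 15 genes, 479, to 1940 CPM per kilobase, and each mRNA lies lower with rhSema3C than with PBS.

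Among the mRNAs of ATP synthase, MT-ATP8, which encodes a small subunit of its membrane part (8366 to 8572), had 2000, 1509 and 1514 CPM with PBS and 687, 664 and 601 CPM with rhSema3C (log2 fold change -1.36, SE 0.10, edgeR adjusted p = 5.1e-07). MT-ATP6, encoding the subunit a that forms the proton channel (8527 to 9207), went from 4003, 3282 and 3289 CPM to 1543, 1623 and 1466 CPM (-1.19, SE 0.07, adjusted p = 1.6e-07). Both are made as a single bicistronic mRNA and overlap by 46 bases, and the ratio of MT-ATP8 to MT-ATP6 counts was 0.473 ± 0.0227 with PBS and 0.422 ± 0.0206 with rhSema3C. In the overlap, reads cannot be assigned to either gene with certainty. MT-ATP6 also shares 1 base with MT-CO3.

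The mRNAs of cytochrome c oxidase, complex IV, were lower by unequal amounts. MT-CO1, the catalytic core subunit and the most abundant member (5904 to 7445), stood at 15100, 14333 and 13955 CPM with PBS and at 10729, 10311 and 10132 CPM with rhSema3C (log2 fold change -0.48, SE 0.04, edgeR adjusted p = 1.0e-06). MT-CO2, which takes electrons from cytochrome c (7586 to 8269), was at 3887, 3285 and 3217 CPM and then at 1408, 1504 and 1440 CPM (-1.26, SE 0.07, adjusted p = 5.2e-08). Only MT-TS1 and MT-TD lie between these genes.

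The ratio of MT-CO2 to MT-CO1 counts was 0.257, 0.229 and 0.231 in the PBS samples and 0.131, 0.146 and 0.142 in the rhSema3C samples, a log2 difference of -0.77 with no overlap (exact permutation p = 0.1, adjusted 0.137). MT-CO3, the third core subunit (9207 to 9990), was at 4185, 3277 and 3568 CPM with PBS and at 2334, 2322 and 2087 CPM with rhSema3C (-0.71, SE 0.08, edgeR adjusted p = 1.3e-05). Its ratio to MT-CO1 went from 0.254 ± 0.0243 to 0.216 ± 0.00968, again without overlap, and the difference was smaller than that of MT-CO2, with a log2 difference of -0.23.

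MT-CYB, cytochrome b and the only mitochondrial gene of complex III (14747 to 15887), had 4389, 3919 and 3972 CPM with PBS and 2100, 1964 and 1943 CPM with rhSema3C. Its treated samples were thus at about 48.9% of the control level (log2 fold change -1.03, SE 0.05, edgeR adjusted p = 3.2e-08).

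Complex I, the NADH dehydrogenase, has 7 mitochondrial mRNAs, and their falls lay between 0.50 for MT-ND5 and 0.88 for MT-ND2 on the log2 scale. MT-ND2 (4470 to 5511) went from 5547, 4538 and 4450 CPM to 2694, 2669 and 2525 CPM (SE 0.07, edgeR adjusted p = 1.4e-06). MT-ND5 (12337 to 14148) had 1949, 2094 and 2381 CPM with PBS and 1613, 1487 and 1431 CPM with rhSema3C (SE 0.07, adjusted p = 7.0e-05), so that the groups did not overlap.

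MT-ND4 and MT-ND4L, which share a bicistronic mRNA and 7 bases, fell by 0.74 and 0.84 on the log2 scale (SE 0.04 and 0.06). The ratio of MT-ND4L to MT-ND4 counts overlapped between the groups, at 0.228 ± 0.00817 and 0.213 ± 0.00895 (exact permutation p = 0.2, adjusted 0.26). MT-ND1 changed by -0.64 (SE 0.07) and MT-ND3, the least abundant mRNA per kilobase, by -0.59 (SE 0.07).

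MT-ND6 (14149 to 14673) is the only mRNA of the light-strand transcript. It had 344, 349 and 397 CPM with PBS and 230, 233 and 212 CPM with rhSema3C (log2 fold change -0.69, SE 0.06, edgeR adjusted p = 2.3e-06). Relative to the sum of the 12 heavy-strand mRNAs its counts were at 0.654, 0.751 and 0.848% with PBS and at 0.772, 0.798 and 0.759% with rhSema3C, which overlap (exact permutation p = 0.7). This ratio differed by 0.06 on the log2 scale, and by -0.04 without the first PBS sample, so that no direction can be read from it. The strand setting of the counting is not given in the sources used here, and if strand was not used, reads of MT-ND6 and of the opposite strand, where MT-ND5 transcripts can run on, cannot be told apart. Against MT-ND5 alone, MT-ND6 counts were at 0.177, 0.167 and 0.167 with PBS and at 0.143, 0.157 and 0.148 with rhSema3C, without overlap.

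Per kilobase of gene, and within PBS, the mRNA levels ran from 513 ± 48.8 CPM per kilobase for MT-ND3 to 9379 ± 378 for MT-CO1 (SD, n = 3). From below, MT-ND3 was followed by MT-ND6 at 692 ± 56.2, MT-ND5 at 1182 ± 121 and MT-CYB at 3587 ± 226. MT-ND1, MT-ND4, MT-ND4L, MT-ND2, MT-CO3, MT-CO2 and MT-ATP6 then followed between 3651 and 5175, each differing from its neighbour in this order by less than the SD of the higher of the pair, except for MT-ND4 above MT-ND1. MT-ATP8 was at 8089 ± 1361, which is within 1 SD of MT-CO1. Its gene has only 207 bases, 46 of them shared with MT-ATP6, where reads cannot be assigned with certainty. MT-ATP6, on the same bicistronic mRNA, was at 5175, so the level of MT-ATP8 per kilobase need not reflect its abundance beside MT-CO1.

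The rRNAs changed their place among these levels. With PBS, MT-RNR1 at 479 ± 16.4 CPM per kilobase lay below MT-ND6 and differed from MT-ND3 by less than the SD of the latter, and MT-RNR2 at 1385 ± 134 lay between MT-ND5 and MT-CYB. With rhSema3C, MT-RNR1 reached 1940 ± 68.6 CPM per kilobase, above MT-CYB at 1755 ± 74.8, and MT-RNR2 reached 3806 ± 194, above every mRNA but MT-CO1 at 6738 ± 199.

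Expressed as a share of all mitochondrial mRNA counts, 3 mRNAs had a higher share in every rhSema3C sample, 6 had a lower share and 4 overlapped. MT-CO1 made up 28.5, 30.6 and 29.5% of the mRNA counts with PBS and 35.7, 35.0 and 36.1% with rhSema3C. MT-ND1 went from 7.12% ± 0.177 to 7.67% ± 0.262 and MT-ND5 from 3.68, 4.48 and 5.04% to 5.37, 5.05 and 5.09%. The groups of MT-ND5 nearly touch, as do those of MT-ND1, at 7.29% in the highest PBS and 7.38% in the lowest rhSema3C sample. Those of MT-ND4L do so too, at 2.60% in the lowest PBS and 2.56% in the highest rhSema3C sample. The difference of MT-ND5, 0.772 percentage points, shrank to 0.413 without the first PBS sample, as that of MT-ND2 did from -0.859 to -0.555. Those with a smaller share were MT-ND2, MT-CO2, MT-ATP8, MT-ATP6, MT-ND4L and MT-CYB. MT-CO2 went from 7.06% ± 0.267 to 4.97% ± 0.249, MT-ATP6 from 7.18% ± 0.329 to 5.29% ± 0.198 and MT-CYB from 8.36% ± 0.0633 to 6.86% ± 0.168. For each of these 9 shares the exact permutation p was 0.1, the smallest possible.

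**Figure D4:**
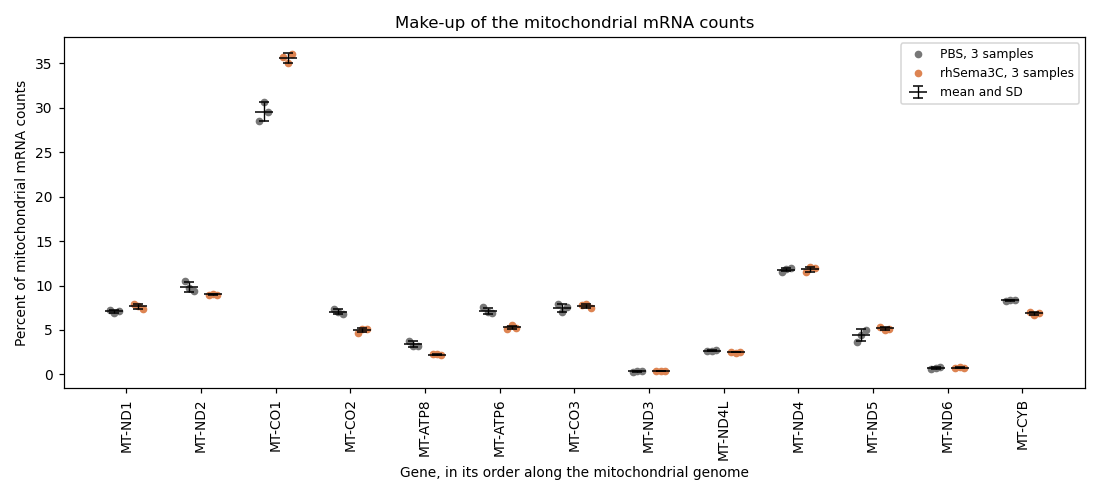
Percent of the mitochondrial mRNA counts (vertical axis) taken by each of the 13 mRNAs in genome order (horizontal axis), with a point for each PBS (grey) and rhSema3C (orange) sample and the mean and SD of 3 samples. MT-CO1 stands at 29.6% with PBS and 35.6% with rhSema3C, and MT-CO2, MT-ATP8, MT-ATP6 and MT-CYB take smaller shares.

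The ends of the protein-coding genes were compared next, since some mitochondrial genes end in an incomplete stop codon that becomes UAA only when the adenine tail is added. A gene end is not always the 3′ end of an mRNA. The ends of MT-ATP8 and MT-ND4L lie inside their bicistronic mRNAs. The last 24 bases of 4 genes are given, with the bases left over after the last whole codon, or the complete last codon, in capitals. MT-ND3 and MT-CYB have the smallest and largest fall among the genes with an incomplete stop codon, and MT-CO1 and MT-ATP8 among those with a complete final codon.
MT-ND3: aaaaaggattagactgaaccgaaT
MT-CYB: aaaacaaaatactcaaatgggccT
MT-CO1: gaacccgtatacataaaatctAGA
MT-ATP8: cattcattgcccccacaatccTAG
The 6 genes with an incomplete stop codon had log2 fold changes from -1.03 to -0.59 with a median of -0.72, and the 7 with a complete final codon from -1.36 to -0.48 with a median of -0.84. The ranges overlap widely.

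Position along the genome was weakly related to the change. Over the 13 mRNAs, the correlation of log2 fold change with the start position was r = 0.02 (rho = 0.07) and that with gene length r = 0.51 (rho = 0.45). The correlation with the log2 of the mean PBS level per kilobase was r = -0.45 (rho = -0.42) and that with GC content r = 0.23 (rho = 0.24). The PBS level is itself part of the fold change, so the 2 are not independent. These 13 genes share libraries and precursors and are not independent, so the values serve as a description. For the 22 tRNA genes the correlation with start position was r = 0.15 (rho = 0.18).

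The tRNA genes carried few counts, from 20 to 6817 in a sample, and a count over a tRNA gene may come from the mature tRNA or from a precursor that has not been cut. Per kilobase of gene their PBS levels ran from 6.42 CPM for MT-TW to 1013 for MT-TN. Of the 14 heavy-strand tRNAs, edgeR called 1 higher and 3 lower, and 10 did not pass, with a median log2 fold change of -0.16 that turned to 0.15 with limma on log2(TPM + 1), to 0.024 and 0.025 with limma on FPKM and to 0.17 without the third PBS sample. Of the 8 light-strand tRNAs it called 1 higher and 6 lower, and 1 did not pass, with a median of -1.03 that lay between -1.07 and -0.80 under all alternatives. Of all genes tested, 31.7% were called higher and 30.6% lower. No test of the difference between the strands was made. If strand was not used in counting, reads of these tRNA genes and of the opposite strand cannot be told apart. The strands also differed in depth, since 5 of the 6 tRNAs with a mean of at least 1000 counts were light-strand genes, and all 6 of these were lower, with a median of -1.12. MT-TP, which rose, lies just under this limit with a mean of 998 counts.

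**Figure D5:**
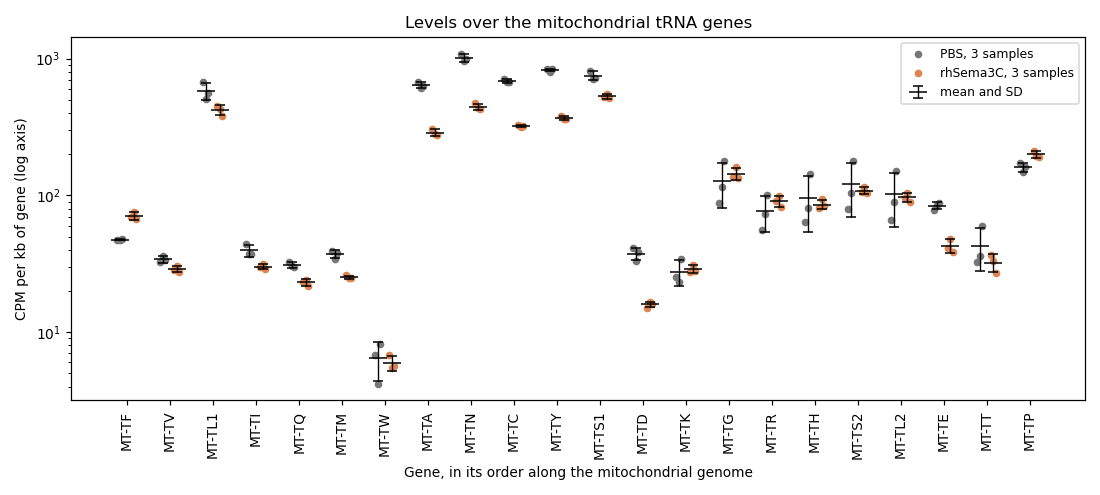
Level over the 22 mitochondrial tRNA genes in CPM per kilobase of gene (log axis) in each PBS (grey) and rhSema3C (orange) sample, in genome order, with the mean and SD of 3 samples. MT-TA, MT-TN, MT-TC, MT-TY and MT-TD lie lower with rhSema3C, MT-TF and MT-TP lie higher, and the PBS samples spread widely from MT-TG to MT-TL2.

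All 4 clustered light-strand tRNAs shown above fell, within the same limit on strand. MT-TN had 79.3, 69.8 and 72.7 CPM with PBS and 34.4, 31.9 and 31.3 CPM with rhSema3C (log2 fold change -1.18, SE 0.06, edgeR adjusted p = 6.7e-08). MT-TY was at 55.03, 53.01 and 55.10 CPM and then at 25.0, 23.9 and 23.7 CPM (-1.17, SE 0.06, adjusted p = 4.1e-08). MT-TA and MT-TC changed by -1.16 (SE 0.07) and -1.09 (SE 0.06), so all 4 retained between 44.0% and 47.0% of their PBS level.

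MT-ND2 is encoded next to this cluster but on the opposite strand. The summed counts of the 4 tRNAs were 0.0411, 0.0461 and 0.0485 of those of MT-ND2 with PBS and 0.0379, 0.0361 and 0.0377 with rhSema3C, without overlap (exact permutation p = 0.1, adjusted 0.137). MT-TW, a heavy-strand gene that lies between MT-ND2 and the cluster, had only 20 to 40 counts in a sample, and its log2 fold change of -0.11 had an SE of 0.33.

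MT-TS1, a serine tRNA on the light strand (7446 to 7514), had 56.4, 48.8 and 50.1 CPM with PBS and 36.4, 38.1 and 35.3 CPM with rhSema3C (log2 fold change -0.50, SE 0.07, edgeR adjusted p = 6.7e-05). The mRNA of MT-CO1 is known to extend past its coding end through the stretch opposite MT-TS1. The ratio of MT-TS1 to MT-CO1 counts was 0.00373, 0.00341 and 0.00359 with PBS and 0.00339, 0.00369 and 0.00348 with rhSema3C, with overlap and a log2 difference of -0.02 (exact permutation p = 0.7). Without a known strand setting, reads of MT-TS1 and of the end of the MT-CO1 mRNA cannot be told apart. The other light-strand tRNA that fell, MT-TE (glutamate, 14674 to 14742), went from 5.40, 5.91 and 6.04 CPM to 2.84, 3.33 and 2.68 CPM (-0.97, SE 0.15, edgeR adjusted p = 0.00019).

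The tRNA genes beside the rRNA genes had smaller fold changes than the rRNAs. MT-TF had 3.36, 3.33 and 3.42 CPM with PBS and 4.95, 5.40 and 4.74 CPM with rhSema3C (log2 fold change 0.58, SE 0.14, edgeR adjusted p = 0.0041). The ratio of MT-TF to MT-RNR1 counts was 0.00737 ± 0.00016 with PBS and 0.00272 ± 0.00011 with rhSema3C, without overlap (exact permutation p = 0.1, adjusted 0.137). MT-TV, which lies between the 2 rRNAs, was at 2.23, 2.47 and 2.33 CPM and at 1.97, 2.10 and 1.91 CPM, which did not pass the test (log2 fold change -0.23, SE 0.18, adjusted p = 0.29).

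MT-TL1, the leucine tRNA behind MT-RNR2 (3230 to 3304), holds the binding site of the termination factor MTERF1. Its counts fell from 50.2, 38.2 and 42.3 CPM to 33.8, 31.9 and 28.7 CPM (log2 fold change -0.47, SE 0.10, edgeR adjusted p = 0.0016), although the rRNA that ends at its border rose. With limma on log2(TPM + 1) the value was -0.24 and the adjusted p was 0.051.

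MT-TP, which is read from the light-strand transcript, was at 11.63, 10.03 and 10.98 CPM with PBS and at 14.46, 13.24 and 12.98 CPM with rhSema3C (log2 fold change 0.32, SE 0.10, edgeR adjusted p = 0.015). This call was lost without the second PBS sample (adjusted p = 0.057) and without the first rhSema3C sample (0.062). The remaining heavy-strand calls were MT-TD, at 2.78, 2.24 and 2.62 CPM and then 1.03, 1.12 and 1.10 CPM (-1.23, SE 0.20, edgeR adjusted p = 0.00026), and MT-TM, which had 2.69, 2.34 and 2.56 CPM and then 1.77, 1.69 and 1.70 CPM (-0.56, SE 0.18, adjusted p = 0.02). MT-TM no longer passed without the first PBS sample (adjusted p = 0.059), the second rhSema3C sample (0.058) or the third (0.053). MT-TI and MT-TQ, which meet end to end on opposite strands with 3 shared bases, were lower in every rhSema3C sample but missed the threshold (-0.39 and -0.42, edgeR adjusted p = 0.079 and 0.07). Limma on log2(FPKM + 1) called both lower (adjusted p = 0.0089 and 0.0015).

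The PBS samples themselves differed over some heavy-strand tRNA genes, which are grouped here after their values were seen. For MT-TG, MT-TR, MT-TH, MT-TS2, MT-TL2 and MT-TT, the highest PBS sample was 1.80 to 2.28 times the lowest, whereas the same ratio was 1.12 to 1.36 among the rhSema3C samples and at most 1.33 for any mRNA in PBS. MT-TH, for example, had 4.395, 5.598 and 9.909 CPM in the PBS samples and 5.54, 6.44 and 5.75 CPM in the rhSema3C samples. In these 6 genes the first PBS sample was lowest and the third highest, whereas MT-TW, with few counts and a ratio of 1.96, was lowest in the second. None passed the test, and their log2 fold changes ran from -0.41 to 0.26. Without the third PBS sample, MT-TG (0.50, edgeR adjusted p = 0.021) and MT-TR (0.50, adjusted p = 0.032) were called higher, MT-TH, MT-TS2 and MT-TL2 changed sign to 0.24, 0.24 and 0.32, and MT-TT moved from -0.41 to -0.089.

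Nuclear genes that act on mitochondrial RNA were described by lists of their own, each read against the same 31.7% higher and 30.6% lower over all genes. Several genes named from these lists overlap other genes, such as TWNK with MRPL43 and PTCD2 with MRPS27 on the other strand. Not every overlap is given here, and reads in them cannot be assigned with certainty. Of 17 genes for transcription and copying of mitochondrial DNA, 5 were higher and 3 lower, with a median log2 fold change of -0.01. POLRMT, the RNA polymerase, was at -0.17 (SE 0.08, edgeR adjusted p = 0.084), and TFAM, which bends the promoter DNA, fell by 0.17 (SE 0.07, adjusted p = 0.046). MRPL12, a ribosomal protein that also binds POLRMT, fell the most, from 123, 121 and 120 CPM to 64.0, 67.4 and 62.2 CPM (-0.91, SE 0.04, adjusted p = 3.3e-08). Of the MTERF family, which binds mitochondrial DNA and rRNA, MTERF1 did not pass the test (-0.17, adjusted p = 0.33), while MTERF2 (0.41), MTERF3 (0.75) and MTERF4 (0.27) rose. POLG2, the accessory subunit of the mitochondrial DNA polymerase, rose by 0.75, and the helicase gene TWNK changed by -0.45.

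Of 11 genes for cutting and finishing at tRNA borders, 1 was higher and 5 were lower, with a median of 0.07. ELAC2, the enzyme that cuts behind each tRNA, had 135, 143 and 137 CPM with PBS and 104, 94.8 and 101 CPM with rhSema3C (log2 fold change -0.47, SE 0.05, edgeR adjusted p = 5.3e-06). Among the subunits of mitochondrial RNase P, which cuts in front of each tRNA, HSD17B10 fell by 0.64, whereas PRORP, the nuclease, was at 0.24 (SE 0.13, adjusted p = 0.13). FASTKD5, needed where no tRNA marks the border of an mRNA such as those of MT-CO1 and MT-CO3, was at 34.1, 30.7 and 35.0 CPM and then at 18.2, 16.6 and 19.2 CPM (-0.88, SE 0.08, adjusted p = 3.5e-06), and this gene overlaps UBOX5 on the same strand. TBRG4, another member of the FASTK family, changed by -0.57, and TRNT1, which adds the CCA end, rose by 0.40.

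Of 13 genes for the stability, tailing and decay of mitochondrial mRNA, 5 were higher and 2 lower, with a median of 0.12. LRPPRC, which holds most mitochondrial mRNAs stable, had 89.6, 83.5 and 86.7 CPM with PBS and 91.6, 112 and 105 CPM with rhSema3C (log2 fold change 0.25, SE 0.07, edgeR adjusted p = 0.007), and its partner SLIRP was at -0.04 (SE 0.18, adjusted p = 0.87). MTPAP, the polymerase of the adenine tails, rose by 0.42 (adjusted p = 0.0032) and PDE12, which removes such tails, changed by -0.38. Of the degradosome, the helicase SUPV3L1 rose by 0.51 and the nuclease PNPT1 was at 0.12 (SE 0.07, adjusted p = 0.16). The RNA-binding protein GRSF1 was at 0.04 (adjusted p = 0.39). PTCD2 rose by 0.68, and TACO1, a translational activator of MT-CO1, changed by -0.46.

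The list for rRNA modification and ribosome assembly held 23 genes, of which 4 were higher and 13 lower, with a median of -0.38. TFB1M, which methylates the 12S rRNA near its 3′ end, stood apart with 10.5, 10.4 and 9.73 CPM in the PBS samples and 26.0, 28.5 and 27.4 CPM in the rhSema3C samples. This rise (log2 fold change 1.42, SE 0.08, edgeR adjusted p = 1.1e-07) was the largest of any gene tested in these lists, and TIAM2 and CLDN20 overlap TFB1M on the other strand. GTPBP10, an assembly factor of the large subunit that overlaps CLDN12 on the same strand, rose by 0.60, and NSUN4, an rRNA methyltransferase, by 0.22. Lower were MRM1, which methylates the 16S rRNA (-0.86, SE 0.10), the assembly factor RCC1L (-0.80, SE 0.05) and the RNA helicase DHX30 (-0.58, SE 0.05). More members of this list were thus lower than higher, with 13 against 4, beside 30.6% and 31.7% of all genes. Whether these genes bear on the rise of the rRNAs was not tested.

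Of 17 genes tested for tRNA modification, 5 were higher and 7 lower, with a median of -0.16. TRMU, which adds sulfur to the anticodon wobble base, changed by -0.42, and PUS1, a pseudouridine synthase, by -0.39. TRIT1, which isopentenylates the base next to the anticodon, rose by 0.55, and OSGEPL1, which modifies the same place in other tRNAs, by 0.49. Of 7 tested regulators of mitochondrial biogenesis, 1 was higher and 3 lower, with GABPB1 at 0.43 and the nuclear receptor ESRRA at -0.33.

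The nuclear genes for the same respiratory complexes were set beside the 13 mRNAs. Of 73 tested nuclear subunits of complexes I, III and IV and of ATP synthase, 15 were higher and 39 lower. Their median log2 fold change was -0.19, with a range from -1.02 to 0.54. Of all genes tested, 31.7% were higher and 30.6% lower, with a median of 0.02. The mitochondrial mRNAs had a median of -0.74, and 13 of 13 were lower. In complex I, 4 nuclear subunits were higher and 19 lower of 37, with NDUFA11 at -0.73 and NDUFS4 at 0.46. In complex III, 3 were higher and 5 lower of 9, with the cytochrome c1 gene CYC1 at -0.58 and UQCRC2 at 0.54. In complex IV, 3 were higher and 6 lower of 11, with COX6B1 and COX8A both at -0.54 and COX6C at 0.47.

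In ATP synthase, 5 nuclear subunits were higher and 9 lower of 16, beside the same 31.7% and 30.6% of all genes. ATP5MC1, one of the genes of the c-ring, had 59.1, 61.1 and 67.7 CPM with PBS and 32.4, 31.2 and 29.2 CPM with rhSema3C (log2 fold change -1.02, SE 0.07, edgeR adjusted p = 3.2e-07), while ATP5F1E rose by 0.31. Complex II has no mitochondrial gene. Of its 4 subunits, 2 were higher and 2 lower, beside 31.7% and 30.6% of all genes, with a median of -0.09.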

How the data were processed

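RNA of 6 LX-2 samples was sequenced, and the authors deposited whole-number counts and FPKM values per gene, and name Cufflinks and cuffmerge for differential expression. The aligner, counting tool, build and strand setting are not given in the sources used here. Low counts look like fractions raised to the next whole number: for genes under 400 bases with a count of 2, the median count implied by the FPKM was 1.55. For the members the implied count was at least 0.974 of the deposited count. Coordinates of all 37 members equalled those of GENCODE release 29 on GRCh38. FPKM served for the filter (mean of at least 0.5) and for ranks. Counts were tested with edgeR 4.0.16 (quasi-likelihood, TMM, Benjamini-Hochberg) in R 4.3.3 over 14178 genes, a call being an adjusted p below 0.05. The SE of an edgeR log2 fold change is that change, without its sign, divided by the square root of its quasi-likelihood F statistic. CPM were scaled by TMM factors. Ratios and shares were compared by exact permutation over samples. The test was tried on simulated counts. Alternatives were DESeq2 1.42.0, limma 3.58.1 on log2(FPKM + 1) or TPM, other scalings and filters, a replicate block and leaving out each sample. Every mitochondrial gene is named. Of each nuclear list, up to 3 of the largest rises and falls with mean FPKM of at least 1 and genes of direct role could be named. Members and lists were chosen with earlier results of these data known. P-values set the difference between the groups against the spread between these samples, which may be technical. Counts are not molecules, since no molecular identifiers were used.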

Additional observations from a re-analysis of the deposited data

How the results depend on the processing

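The 2 rRNAs and 13 mRNAs kept direction and call under all 18 alternatives, in 36 of 36 and 234 of 234 values. Of 396 values for tRNA genes, 361 kept both, 6 lost the call, 8 gained one and 21 changed sign. MT-TL2 (-0.08) turned to 0.030 with library size alone and 0.025 with an FPKM minimum of 5. With limma it stood at 0.23 on TPM, 0.10 on FPKM + 1 and 0.11 on FPKM + 0.1, where in the same order MT-TW was at 0.17, 0.040 and 0.054, MT-TH at 0.14, 0.017 and 0.018 and MT-TS2 at 0.16, 0.031 and 0.032. Leaving out single samples gave ranges from -0.34 to 0.10 for MT-TW, -0.39 to 0.24 for MT-TH, -0.37 to 0.24 for MT-TS2, -0.31 to 0.32 for MT-TL2 and -0.030 to 0.50 for MT-TG, each from the first to the third PBS sample left out except MT-TW, whose lowest value came without the second, and from -0.044 to 0.25 for MT-TK (without the second and the third). The number of tRNAs called higher was between 1 and 4, and was 1 without PBS 2 or rhSema3C 1 and 4 without PBS 3. The number called lower was 8 without PBS 1, rhSema3C 2 or rhSema3C 3, where MT-TM was lost, and 11 with limma on FPKM + 1 or + 0.1, where MT-TI and MT-TQ were gained.

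The median of all genes shifted from 0.02 to 0.13 with library size alone and to 0.23 with TPM. The mRNA median became -0.63 with library size alone, -0.51 with TPM and -0.64 with FPKM of at least 5 or with limma on FPKM + 1 and + 0.1. The rRNA median of 1.74 became 1.85, 1.97, 1.84, 1.84 and 1.84, and the tRNA median of -0.40 became -0.15 with TPM. As shares of summed FPKM, the differences were -5.32 percentage points for all members, 1.57 for rRNA, -6.38 for mRNA and -0.511 for tRNA. The rRNA to mRNA log2 ratio was 2.49 in FPKM and 2.26 without the overlapping gene pairs. MT-ND6 against heavy-strand mRNA (0.06) was -0.0048 without those pairs and from -0.040 to 0.15 with single samples left out, without the first and the third PBS sample. The causes of these shifts were not tested.

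Same-numbered samples did not deviate together (r = -0.0923, -0.084 and -0.0366 over genes). This gave no sign that the numbers pair samples, though 3 samples a group cannot exclude it. With a replicate block, 4221 genes were higher and 4120 lower, against 4490 and 4339, no member's call changed, and MT-TL2 was at 0.0031. Adding the counts of 3 nuclear copies to their mitochondrial genes, an alternative chosen after seeing the data, changed no member's call. Each of these copies held a nearly constant share of the counts of its gene, so the addition could hardly move a fold change. With 3 samples a group, exact permutation tests of ratios cannot go below p = 0.1, and tRNA genes with few counts allow only wide errors.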

Other observations

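The table also held 76 nuclear copies of mitochondrial genes, which together carried 1.91% as many counts as the mitochondrial genes, and 66 of them had at most 100 counts over the 6 samples. The 3 with the most counts lie near each other on chromosome 1 and are almost identical in sequence to their mitochondrial gene. MTATP6P1 (chr1:633696-634376, 98.5% identity with MT-ATP6) had 633, 511 and 506 CPM with PBS and 238, 248 and 230 CPM with rhSema3C, a log2 fold change of -1.20 beside -1.19 for MT-ATP6. Its counts were between 15.3% and 15.8% of those of MT-ATP6 in every sample. MTND2P28 (chr1:629640-630683, 98.4% identity) changed by -0.92 and held 7.39% to 8.18% of the MT-ND2 counts, and MTCO1P12 (chr1:631074-632616, 98.7% identity) changed by -0.43 and held 1.35% to 1.46% of the MT-CO1 counts. Reads of such copies and of the mitochondrial genes cannot be told apart in gene counts.

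The copies of the 16S rRNA gene that were tested had few counts and rose as that gene did. MTRNR2L12 (95.3% identity with MT-RNR2) had a log2 fold change of 1.79 (SE 0.35) and 570 counts over the 6 samples. MTRNR2L8 (93.2%) had 1.76 (SE 0.31) and 354 counts. Each held at most 0.0349% of the MT-RNR2 counts. The copy MTCO3P12 (98.2% identity with MT-CO3) changed by -0.92 (SE 0.28). It had 409 counts over the 6 samples and held at most 0.0343% of the MT-CO3 counts.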
